A study of Mus musculus with 28 samples.

Results

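The response of Wdr82-depleted mouse macrophages to 1 h of lipopolysaccharide (LPS) was read from 2 libraries of labelled RNA, out of 28 libraries in the series. They were chosen by their labels: the stranded 4-thiouridine (4sU) libraries of cells carrying the hairpin sh1137, one from untreated cells and one from cells given LPS. Both were made from macrophages grown for 7 days out of the bone marrow of FVB/Hsd animals. These had been infected with a retrovirus that carries sh1137, a short hairpin against Wdr82, and had been selected with puromycin. LPS, a component of the outer membrane of Gram-negative bacteria, was given at 10 ng/ml; the time of 1 h is that of the sample title, while the treatment protocol names a single, longer time. 4sU, a uridine analogue that marks RNA made while it is present, was in the medium for the last 45 min, and the marked RNA was pulled out and sequenced without ribosomal depletion or polyA selection. The 2 other libraries of the same table, untreated and LPS 1 h cells with the empty vector (labelled LMP), gave the control response and were infected and selected in the same way. The control vector holds no hairpin, so carrying a hairpin and losing Wdr82 cannot be told apart. With 1 library per condition, the differences have no replicate check, and no p-values are given.

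LPS binds CD14 and the receptor TLR4 with MD-2, and signals through MyD88 and TRIF to NF-kappaB, the MAP kinases and IRF3. In macrophages a first set of genes, among them immediate early transcription factors, NF-kappaB inhibitors, chemokines and TNF, is transcribed within minutes from promoters that are already open. A later set needs new protein, chromatin remodelling or secreted interferon beta. WDR82 binds the phosphorylated tail of RNA polymerase II near promoters, belongs to the SET1 complexes, which methylate histone H3, and to the PNUTS-PP1 phosphatase complex, and takes part in early termination of transcription.

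Values are in FPKM, the fragments counted per kilobase of a gene's transcript after scaling for library size. The hairpin's own target, Wdr82, stood at 13.4 FPKM untreated and 14.3 FPKM after LPS with sh1137, against 22.7 FPKM and 29.2 FPKM with the empty vector. Its deposited bounds with sh1137 ran from 7.65 to 19.2 FPKM untreated. The LPS ratio of Wdr82 was 0.08 with sh1137 on the log2 scale, so its level was lower with the hairpin in both states and stayed near its untreated value after LPS. None of the 15 genes of the WDR82 complexes and partners was 2-fold higher or lower after LPS with sh1137. Zc3h4, a zinc finger protein that works with WDR82, went from 85.8 to 108 FPKM with sh1137.

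The 15 macrophage markers were all present, with a summed level of 4435.7 FPKM untreated and 4263.3 FPKM after LPS with sh1137, against 4810.2 and 4824.6 FPKM with the empty vector. The 12 neutrophil markers summed to 78.6 FPKM untreated and 70.1 FPKM after LPS with sh1137, against 34.4 and 33.3 FPKM with the empty vector. The 7 B cell markers summed to 16.3 and 16.1 FPKM with sh1137, against 6.85 and 6.92 FPKM. Only 1 of these 7 had at least 1 FPKM in either sh1137 library with a usable status, and 3 were at 0 in all 4 libraries. The 11 dendritic cell and MHC class II markers summed to 56.6 and 72.4 FPKM with sh1137, against 36.1 and 45.8 FPKM. The neutrophil, B cell and dendritic cell sums were thus higher with the hairpin, before and after LPS. The 7 erythroid markers summed to under 1 FPKM, with 4 of them at 0 in every library. The 9 T and NK cell markers summed to 3.79 FPKM untreated and 10.5 FPKM after LPS with sh1137, against 1.80 and 1.67 FPKM with the empty vector, and 4 of them were at 0 in all libraries. Their part in the results was not tested. In bulk RNA, fewer cells of a type and less RNA per cell cannot be told apart. One fragment was worth 1.35 times as many FPKM in the LPS library of sh1137 as in its untreated library, and 1.10 times with the empty vector, read from the commonest ratio of low values. By this measure the untreated sh1137 library was the deeper of its pair. Absolute depths are unknown.

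After 1 h of LPS, sh1137 macrophages made far more RNA of neutrophil-attracting chemokines, TNF and IL-1 beta, NF-kappaB inhibitors and adhesion and costimulatory receptors. Most interferon-stimulated genes stood near their untreated level. The genes 2-fold lower were mostly of low level, with Id1, Rgs2, Klf2, Dusp6 and Egr1 among the exceptions. Of the 13838 genes with at least 1 FPKM in either library and a usable status in both, 619 were at least 2-fold higher (4.47% of them) and 630 at least 2-fold lower (4.55%). Ratios are log2((FPKM + 1)/(FPKM + 1)), a scale that understates the change of low genes, and their median was 0.00. Of those calls, 311 higher and 483 lower ones bore names of small RNAs, clones, predicted genes or pseudogenes. Without such names, and with 1 entry per symbol, 10239 genes were left, called named genes here; 307 were higher (3% of them) and 142 lower (1.39%), and 66 were at least 4-fold higher against 6 at least 4-fold lower. The counts that follow are over named genes unless stated. Those within a gene list are to be set beside these shares of 3% higher and 1.39% lower.

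The balance of the calls differed with the level of the genes. Of 978 genes above 100 FPKM in the higher library, 65 were higher and 4 lower; of 1828 genes at 5 FPKM or less, 73 were higher and 60 lower. The 4 abundant genes that were lower are Dusp6, Rgs2, Pcna and Dab2, the last named after its values were seen. In separate unstranded sh1137 libraries, at 45 min and 2 h of LPS, only Dusp6 was 2-fold lower at both times. There the ratios at 45 min and 2 h were -0.21 and -1.52 for Rgs2, 0.35 and -0.42 for Pcna, and 0.50 and -0.76 for Dab2. Among the 307 higher genes, 122 had deposited bounds that did not overlap between the 2 libraries, against 13 of the 142 lower genes. These bounds describe 1 library each, not the spread between cultures.

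**Figure D1:**
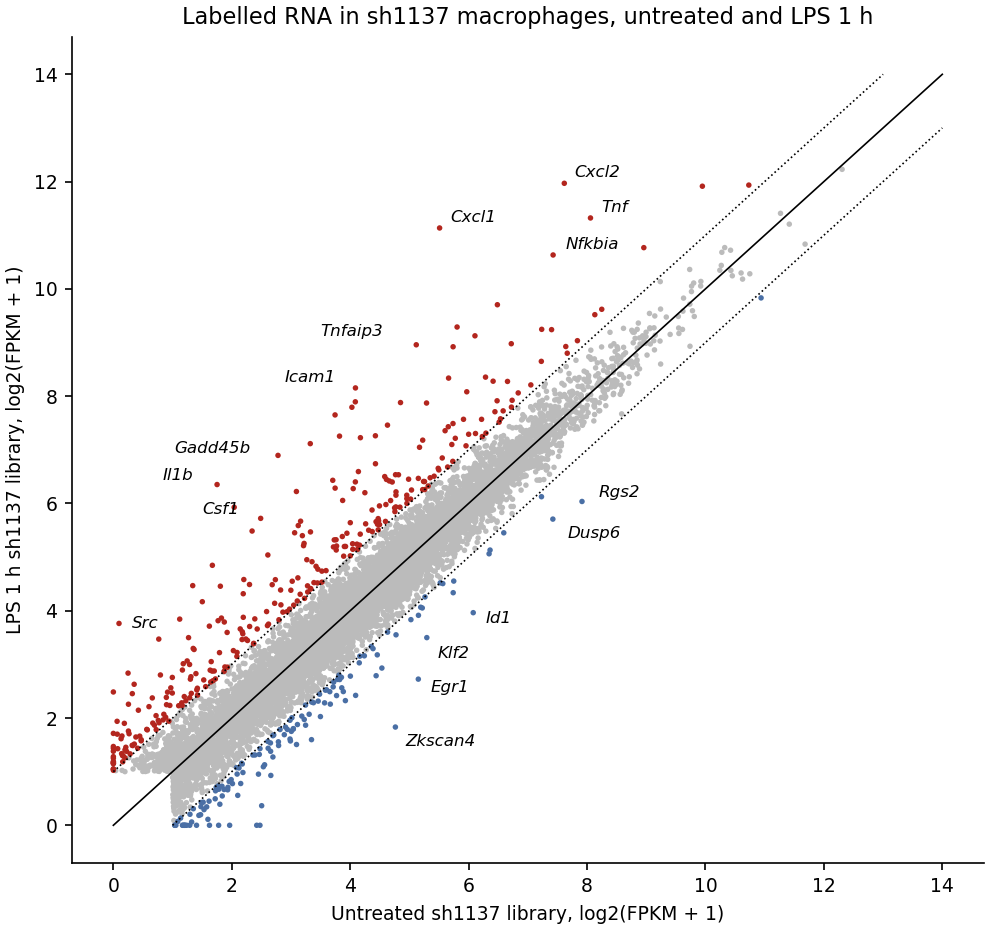
Level in the untreated (x) and LPS 1 h (y) sh1137 libraries, each as log2(FPKM + 1), for genes with at least 1 FPKM in either; 1 point a gene. The solid line marks equal levels and the dotted lines a 2-fold difference; red points (higher) reach the top of the level range, while blue points (lower) lie mostly at low levels.

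Chemokines were among the genes with the largest ratios. Cxcl1, a ligand of the neutrophil receptor CXCR2 (mm9 chr5:91320267-91322141), was at 44.6 FPKM untreated and 2248 FPKM after LPS with sh1137, and at 17.1 and 2092 FPKM with the empty vector. Its ratio was 5.63 with sh1137 and 6.85 with the empty vector, on the log2 scale. Cxcl2, its neighbour with the same receptor (chr5:91332897-91334935), went from 195 to 4006 FPKM with sh1137 and from 133 to 5710 FPKM with the empty vector. Both genes were thus already higher with sh1137 before LPS, and only Cxcl2 was lower with sh1137 afterwards. Cxcl3, the third gene of this kind, was at 27.8 and 235 FPKM with sh1137 and at 2.74 and 57.5 FPKM with the empty vector. Cxcl10, an attractant of T cells through CXCR3, was at 3.11 and 59.9 FPKM with sh1137; its mm9 locus holds 4 genes.

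Of the 22 chemokine genes, 16 entered and 8 of these were 2-fold higher and none lower. Their median ratio was 0.96, beside 0.02 over all 10239 named genes. Ccl3, a chemokine of activated macrophages, went from 1700 to 3914 FPKM with sh1137 and from 633 to 2011 FPKM with the empty vector. Ccl4, a related chemokine, missed 2-fold with sh1137 at 602 and 1124 FPKM, a ratio of 0.90, and passed it with the empty vector at 243 and 872 FPKM. Ccl5, a T cell and monocyte attractant, was at 2.80 and 6.71 FPKM with sh1137 and at 3.28 and 3.05 FPKM with the empty vector, with bounds that overlapped. The monocyte attractants Ccl2 and Ccl7 were not higher after 1 h: Ccl2 was at 1720 and 1243 FPKM with sh1137, and Ccl7 at 314 and 248 FPKM. In the unstranded 4sU table, where a separate untreated sh1137 library served, the ratio of Ccl2 was 2.71 at 45 min and 2.63 at 2 h. Levels cannot be set across the tables, which were scaled separately.

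NF-kappaB is released when its inhibitors are degraded, and switches on those inhibitors' genes again. All 26 genes of the list of NF-kappaB subunits, inhibitors and survival targets entered; 17 were higher and none lower, with a median ratio of 1.81. With the empty vector 18 were higher, 16 of them shared with sh1137, and the median was 1.46. Nfkbia, which encodes the inhibitor IkappaB alpha (chr12:56590398-56593634), was at 171 and 1586 FPKM with sh1137 and at 202 and 1883 FPKM with the empty vector. Its ratio was 3.20 and 3.21. Tnfaip3, encoding the ubiquitin-editing enzyme A20 that ends the signal, was at 33.7 and 496 FPKM with sh1137 and at 41.3 and 544 FPKM with the empty vector. Nfkbie, encoding IkappaB epsilon, was at 13.1 and 152 FPKM with sh1137 and at 10.2 and 116 FPKM with the empty vector. For these genes the levels before and after LPS lay close together in the 2 vectors.

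Among the subunits, Relb was at 7.95 and 49.9 FPKM with sh1137, Nfkb2 at 8.14 and 41.2 FPKM, and Rel at 34.5 and 87.5 FPKM. Rela stood at 23.5 and 42.2 FPKM and Nfkb1 at 31.3 and 46.2 FPKM, both short of 2-fold. Nfkb1, the precursor of p50 and a gene of over 100 kb, had a ratio of 0.55 at 1 h, and 0.67 at 45 min and 3.44 at 2 h in the unstranded libraries. Birc3, an antiapoptotic ubiquitin ligase, was at 104 and 503 FPKM with sh1137 and Traf1, an adaptor of TNF receptors, at 7.71 and 47.1 FPKM. The survival genes of the Bcl2a1 family share near-identical sequence, so their values are uncertain; Bcl2a1a was at 5.66 and 22.9 FPKM.

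Sequence before the start site was looked at for the letters that NF-kappaB binds, because its inhibitors and chemokines led the response. Promoters are the 250 bases before each start in RefSeq (build GRCm38.p6), searched on both strands for the kappaB motif. Of the 20 genes with the highest ratios, 16 matched an entry and 7 held the motif. Their windows follow, 5′ to 3′ on the strand of the gene, with the motif or its reverse complement in capitals:
Cxcl1: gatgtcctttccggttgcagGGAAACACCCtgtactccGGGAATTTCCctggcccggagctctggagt
Cxcl2: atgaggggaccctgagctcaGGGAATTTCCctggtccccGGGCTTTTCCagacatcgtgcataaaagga
Cxcl10: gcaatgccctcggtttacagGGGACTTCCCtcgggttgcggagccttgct
Tnfaip3: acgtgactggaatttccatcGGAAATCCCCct
Ccrl2: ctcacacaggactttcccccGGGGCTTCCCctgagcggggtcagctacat
Csf1: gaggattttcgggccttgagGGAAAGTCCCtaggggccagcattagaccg
Nfkbia: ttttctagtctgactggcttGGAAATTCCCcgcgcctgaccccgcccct

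The windows lie at chr5:90891136-90891203 (+) for Cxcl1, chr5:90903782-90903850 (+) for Cxcl2, chr5:92348963-92349012 (-) for Cxcl10 and chr10:19015411-19015442 (-) for Tnfaip3. Those of Ccrl2, Csf1 and Nfkbia are chr9:111057545-111057594 (-), chr3:107760594-107760643 (-) and chr12:55492648-55492696 (-). In Cxcl1 and Cxcl2 the motif occurred 2 times, 62 to 89 and 69 to 97 bases before the start, and both promoters hold GGGAATTTCC. Over the 66 genes at least 4-fold higher, 56 matched an entry and 13 of these held the motif, 23.2%, beside 5.8% of the 8311 matched genes that entered and 4.71% of all 27025 genes with an entry. TGANTCA, the letters bound by AP-1, was in 12.5% of those 56 genes beside 5.58% of the genes that entered and 7.82% of all. TGACGTCA, bound by CREB and ATF factors, was in 1.79% beside 3.16% and 1.77%. The kappaB motif was in 13.1% of the matched genes among the 307 at least 2-fold higher, and in 7.08% of those among the 142 lower ones. As under 80% of these sets matched an entry (79.5% and 79.6%), the search was not read further for them. A match is a description of letters, not of binding.

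The cytokine gene Il1b had the second highest ratio of all named genes, after Cxcl1. This gene of the fever-inducing cytokine IL-1 beta was at 2.37 and 80.7 FPKM with sh1137 and at 2.31 and 64.6 FPKM with the empty vector. Tnf was at 266 and 2559 FPKM with sh1137 and at 304 and 4611 FPKM with the empty vector, so that its ratio was 3.26 and 3.92. Csf1, the growth factor of macrophages, was at 4.61 and 51.8 FPKM with sh1137 and at 3.06 and 17.1 FPKM with the empty vector. Csf1 was higher with sh1137 in both states, and by more after LPS. Csf2, the growth factor GM-CSF, was listed at 0 in both untreated libraries and stood at 4.60 FPKM after LPS with sh1137 and at 1.12 FPKM with the empty vector.

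Of the 30 cytokine genes, 21 entered, 9 of them higher and none lower; 8 of the 21 had under 1 FPKM untreated and entered through the LPS library. Il6 and Il12b, which are made later in the response, did not enter: Il6 was at 0.13 and 0.36 FPKM with sh1137 and Il12b at 0.14 and 0.19 FPKM. Il10, an anti-inflammatory cytokine, was at 1.98 and 3.14 FPKM.

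Receptors and adhesion molecules of activated macrophages had 11 of 21 entered members higher and none lower, and all 11 were also higher with the empty vector. Icam1, which binds leukocyte integrins, was at 16.0 and 284 FPKM with sh1137 and at 17.0 and 230 FPKM with the empty vector. Cd83, a maturation marker, was at 12.4 and 200 FPKM with sh1137 and at 4.57 and 107 FPKM with the empty vector. Cd40, the receptor through which T cells license antigen presentation, was at 2.19 and 27.8 FPKM with sh1137 and at 4.03 and 18.2 FPKM with the empty vector. Tlr2, the receptor of bacterial lipoproteins, was at 23.8 and 175 FPKM with sh1137. Tlr4, the LPS receptor itself, was at 69.7 and 37.7 FPKM, a ratio of -0.87.

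Several genes of effector enzymes were also higher. Irg1, whose enzyme makes itaconate, was at 16.0 and 237 FPKM with sh1137 and at 5.78 and 184 FPKM with the empty vector. Ptgs2, the inducible cyclooxygenase, was at 3.61 and 22.9 FPKM with sh1137 and at 3.36 and 36.6 FPKM with the empty vector. Sod2, mitochondrial superoxide dismutase, was at 17.0 and 149 FPKM with sh1137. Nos2, the inducible nitric oxide synthase, stood at 0.06 and 0.19 FPKM and did not enter. Of the 24 effector genes that entered, 9 were higher and none lower; 5 of the 24 had under 1 FPKM untreated and entered through the LPS library.

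**Figure D2:**
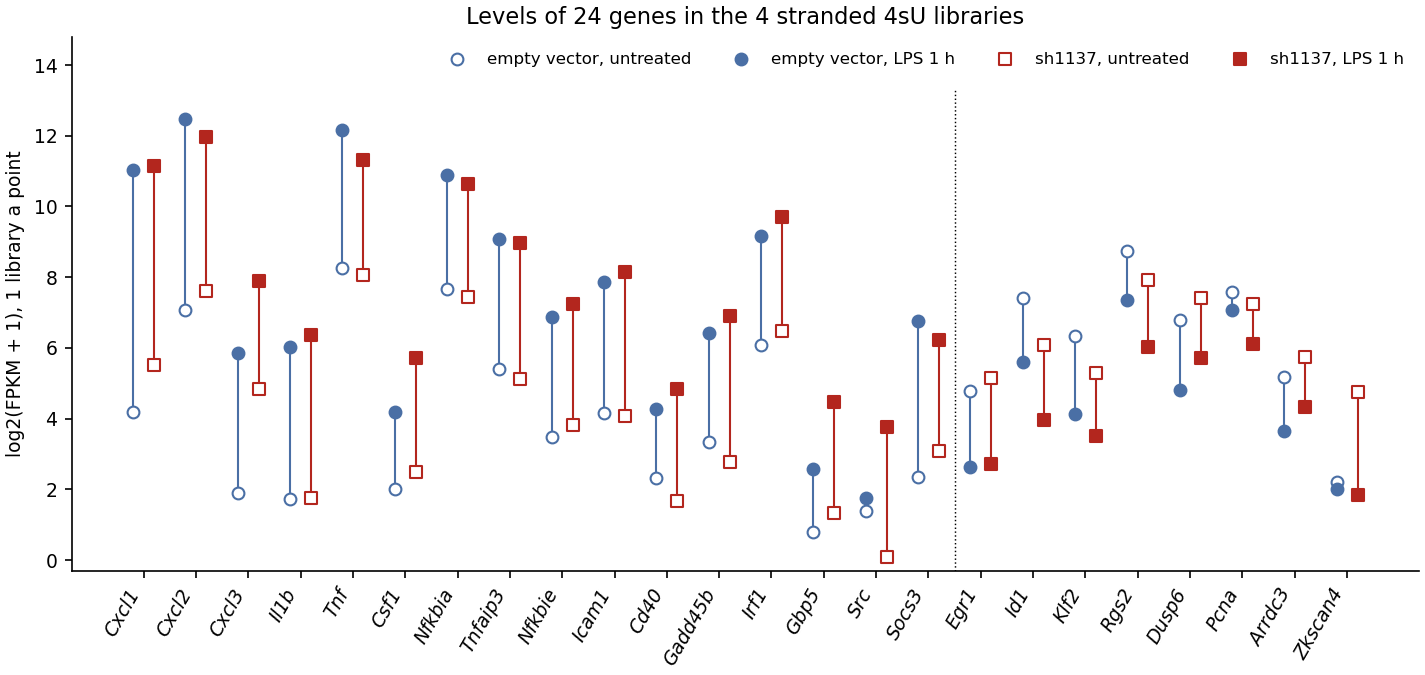
Level of 24 genes in each of the 4 stranded 4sU libraries, as log2(FPKM + 1); open symbols are untreated and filled symbols LPS 1 h, blue circles the empty vector and red squares sh1137, and a line joins the 2 libraries of a vector. Left of the dotted line the filled symbol lies above the open one in both vectors, and right of it below.

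Inhibitors of cytokine signalling and mRNA decay factors had 4 of 18 entered members higher. Socs3, an inhibitor of STAT3 signalling, was at 7.52 and 73.7 FPKM with sh1137 and at 4.05 and 108 FPKM with the empty vector. Zfp36, encoding tristetraprolin, which removes cytokine mRNAs, was at 77.0 and 326 FPKM with sh1137 and at 106 and 539 FPKM with the empty vector. Zc3h12c, of the regnase family, was at 20.5 and 106 FPKM with sh1137, and Zc3h12a, encoding regnase-1, at 17.6 and 30.6 FPKM.

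Immediate early genes were mixed at 1 h. Of the 25 that entered from the list of EGR, NR4A, KLF and related genes, 8 were higher and 2 lower, with a median of 0.22. Gadd45b, which encodes a survival factor acting on stress kinases, was at 5.87 and 118 FPKM with sh1137 and at 9.22 and 84.4 FPKM with the empty vector. Egr2 was at 18.0 and 72.5 FPKM with sh1137 and at 2.53 and 39.6 FPKM with the empty vector. Egr1, by contrast, was at 34.5 FPKM untreated and 5.61 FPKM after LPS with sh1137, and at 26.8 and 5.20 FPKM with the empty vector. Its level was lower after LPS in both vectors, and with sh1137 the bounds did not overlap.

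In the unstranded sh1137 libraries Egr1 was at 2.61 FPKM untreated, 443 FPKM at 45 min and 0.87 FPKM at 2 h. Klf2, a quiescence factor, was at 38.2 and 10.3 FPKM at 1 h with sh1137 and at 79.9 and 16.6 FPKM with the empty vector. Fos was at 33.8 and 18.6 FPKM with sh1137, a ratio of -0.83, and at 92.9 and 92.7 FPKM with the empty vector. In the unstranded libraries the ratio of Fos with sh1137 was 3.79 at 45 min and -0.90 at 2 h. The untreated level of these genes also differed between the tables, which hold separate libraries. How much of the 1 h ratios comes from the untreated library was not tested.

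AP-1 and related factors had 3 of 12 entered members higher. Maff, a small MAF protein, was at 4.07 and 43.8 FPKM with sh1137 and at 3.82 and 41.9 FPKM with the empty vector. Junb was at 38.1 and 233 FPKM with sh1137 and at 60.6 and 416 FPKM with the empty vector. Atf3, which restrains cytokine genes, was at 267 and 411 FPKM with sh1137, short of 2-fold, beside a ratio of 3.63 at 45 min in the unstranded libraries.

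Genes of kinase feedback went both ways, with 7 of 21 entered members higher and 2 lower. Dusp2, a nuclear MAP kinase phosphatase, was at 1.83 and 17.0 FPKM with sh1137 and at 2.85 and 15.8 FPKM with the empty vector. Dusp1, the phosphatase of p38 and JNK, was at 37.3 and 75.6 FPKM with sh1137, a ratio of 1.00, and at 45.4 and 78.7 FPKM with the empty vector. Dusp6, the phosphatase of ERK (chr10:98725865-98730122), was at 171 and 51.3 FPKM with sh1137 and at 109 and 27.1 FPKM with the empty vector. Rgs2, a brake on G protein signalling, was at 240 and 64.6 FPKM with sh1137 and at 428 and 162 FPKM with the empty vector. Both genes were lower after LPS in both vectors. The bounds with sh1137 did not overlap for Dusp6, while for Rgs2 the untreated lower bound of 97.1 FPKM fell just under the LPS upper bound of 99.8 FPKM.

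Other lower genes include Id1, an inhibitor of helix-loop-helix factors and a target of BMP signalling. It was at 66.5 and 14.6 FPKM with sh1137 and at 170 and 47.4 FPKM with the empty vector. Arrdc3, an arrestin-like regulator of receptors, was at 52.4 and 19.2 FPKM with sh1137 and at 35.0 and 11.6 FPKM with the empty vector. Id1, Dusp6 and Arrdc3 were 2-fold lower at both unstranded times too, with ratios of -1.61, -1.11 and -1.56 at 45 min. Zkscan4, a zinc finger gene, had the lowest ratio among genes that reached 5 FPKM, at 26.2 and 2.56 FPKM with sh1137 and 3.59 and 3.02 FPKM with the empty vector. The untreated bounds of Zkscan4 with sh1137 ran from 0.585 to 109 FPKM. A high untreated value was also seen in the unstranded sh1137 library, at 30.0 FPKM against 1.04 FPKM at 45 min and 1.09 FPKM at 2 h.

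The list of resting macrophage genes had 2 higher and 1 lower of 35 entered, where 3% of all named genes were higher and 1.39% lower. DNA replication and cell cycle genes had 1 lower of 29, Pcna, the sliding clamp of DNA polymerase, at 149 and 68.8 FPKM with sh1137 and at 191 and 132 FPKM with the empty vector. Ribosomal protein genes had 4 lower and none higher of 73, with a median of -0.29 (-0.19 with the empty vector), where 1.39% of all named genes were lower. The unstranded sh1137 libraries went the other way. There, 4 of 70 were higher and none lower at 45 min, with a median of 0.19, and 2 of 70 higher and none lower at 2 h, with a median of 0.42.

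Most genes of the interferon list stood near their untreated level. All 45 genes of the interferon list entered, and 4 were higher and none lower, with a median of 0.15. The 4 are Irf1, Gbp5, Gbp3 and Ifnb1. Irf1, a transcription factor whose gene is an early NF-kappaB target, was at 88.6 and 833 FPKM with sh1137 and at 66.3 and 575 FPKM with the empty vector. Gbp5, an antimicrobial GTPase, was at 1.53 and 21.1 FPKM with sh1137 and at 0.75 and 5.02 FPKM with the empty vector. Ifnb1, interferon beta, was listed at 0 untreated and at 1.43 FPKM after LPS with sh1137, and at 0.15 and 0.34 FPKM with the empty vector. Ifit1, an antiviral gene, stood at 13.9 and 14.1 FPKM and Mx1 at 15.9 and 19.1 FPKM with sh1137. In the unstranded sh1137 libraries 41 of 44 entered members of the list were higher at 2 h, with a median of 3.45, against 9 of 44 at 45 min, with a median of 0.24.

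**Figure D3:**
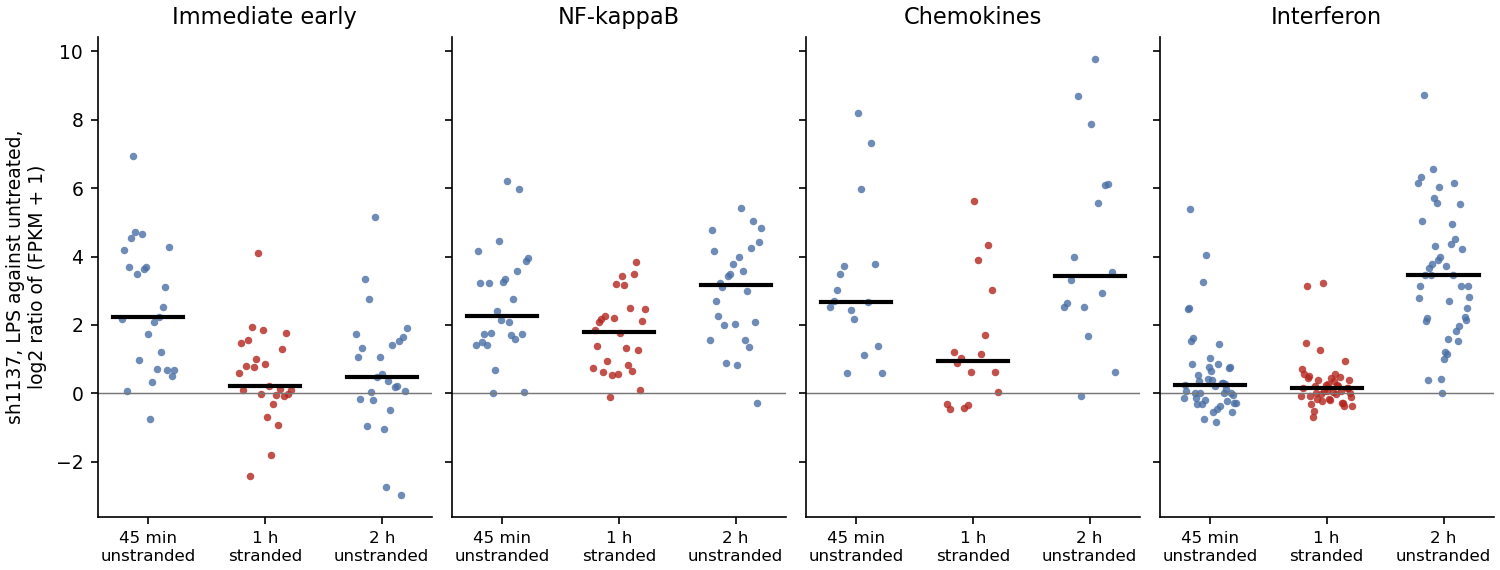
Response to LPS with sh1137 as log2 ratios of (FPKM + 1) for 4 gene lists; 1 point a gene, black bars the median. The 1 h values (red) come from the stranded libraries and the 45 min and 2 h values (blue) from unstranded libraries that share 1 untreated library; the interferon median is 0.15 at 1 h and 3.45 at 2 h, and the immediate early median 2.24 at 45 min and 0.22 at 1 h.

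The unstranded table gives separate libraries of the same hairpin. Of the 307 genes higher at 1 h, 273 could be read at 45 min and 202 of them were 2-fold higher and none lower, where 6.68% of all named genes were higher. At 2 h, 218 of 279 were higher and 3 lower, where 11.9% of all named genes were higher. Of the 66 genes at least 4-fold higher at 1 h, 64 were 2-fold higher at 45 min and 62 at 2 h. Of the 142 lower genes, 116 could be read at 45 min, and 13 of these were lower and 5 higher, where 1.61% of all named genes were lower. At 2 h 118 could be read, and 22 were lower and 6 higher, where 6.29% of all named genes were lower. The 45 min and 2 h values share their untreated library.

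The higher genes were then set beside those of the empty vector. With the empty vector 291 of 9931 named genes were higher (2.93%) and 120 lower (1.21%); over all 13258 genes, small RNA names included, the shares were 4.22% and 3.75%. Of the 307 higher genes, 267 could be read with the empty vector, and 169 of these were higher there too (63.3%) and 5 lower. The 169 genes are 55% of the whole sh1137 list and 58.1% of the empty vector list. For 156 of the 169 the 2 ratios were within 2-fold of each other. The median difference of the 169, sh1137 minus empty vector, was -0.07, beside -0.06 over all 10361 named genes that could be compared. Of the 142 lower genes, 113 could be read with the empty vector, and 24 of these were lower and 2 higher. The 2 responses share no library. Of the 10361 named genes compared, 189 had a response at least 2-fold larger with sh1137 (1.82%) and 158 one at least 2-fold smaller (1.52%); over all 14312 genes the shares were 4.6% and 4.78%.

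Among the 169 shared genes, 7 responded at least 2-fold more with sh1137: Gbp5, Cd40, Csf1, Csf2, Gadd45b, Bcl2a1c and Immp2l. Another 6 responded at least 2-fold less: Gpr84, Egr2, Socs3, Cxcl1, Cxcl2 and Marcks. These lists were read out after the values were seen. For Cxcl1, Egr2 and Marcks the level after LPS was higher with sh1137 than with the empty vector, and the untreated level was higher by more: Marcks, a protein kinase C substrate, was at 88.3 and 240 FPKM with sh1137 and at 34.5 and 198 FPKM with the empty vector. Gpr84, a receptor of medium-chain fatty acids, was different, at 1.37 and 7.36 FPKM with sh1137 and at 1.52 and 27.1 FPKM with the empty vector.

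Of the 7 genes with a larger response, 6 also had a difference of at least 2-fold at 45 min in the unstranded libraries, where 2.09% of all named genes did, and 3 at 2 h, where 2.66% did. Csf2 and Csf1 turned the other way at 2 h, with differences of -0.85 and -0.48. Immp2l is among the 6 although it was lower at 45 min than untreated in both vectors, going from 1.24 to 0.86 FPKM with sh1137 and from 4.67 to 1.01 FPKM with the empty vector. For Gbp5 the difference was 1.34 at 1 h, 2.20 at 45 min and 1.21 at 2 h, and for Cd40 it was 1.24, 1.20 and 0.62. Of the 6 genes with a smaller response none reached a 2-fold smaller one at 45 min or 2 h, where 0.724% and 1.55% of all named genes did. The difference for Cxcl1 was -1.23 at 1 h and -0.03 and -0.35 there, and for Socs3 -1.29, -0.20 and -0.77. Over all named genes, 23 of 155 with a larger response at 1 h had one at 45 min and 6 a smaller one. Of 130 with a smaller response, 5 had a smaller and 9 a larger one. At 2 h these counts were 23 and 11 of 160, and 10 and 7 of 129. Among genes that reached 5 FPKM, 84 had a smaller response at 1 h. Of these, 5 had a smaller and 3 a larger one at 45 min, and 8 and 1 at 2 h. Of 89 with a larger response, 14 had a larger and 3 a smaller one at 45 min, and 11 and 8 at 2 h. Most differences between the vectors at 1 h were thus not 2-fold in the separate libraries, which are of other times.

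**Figure D4:**
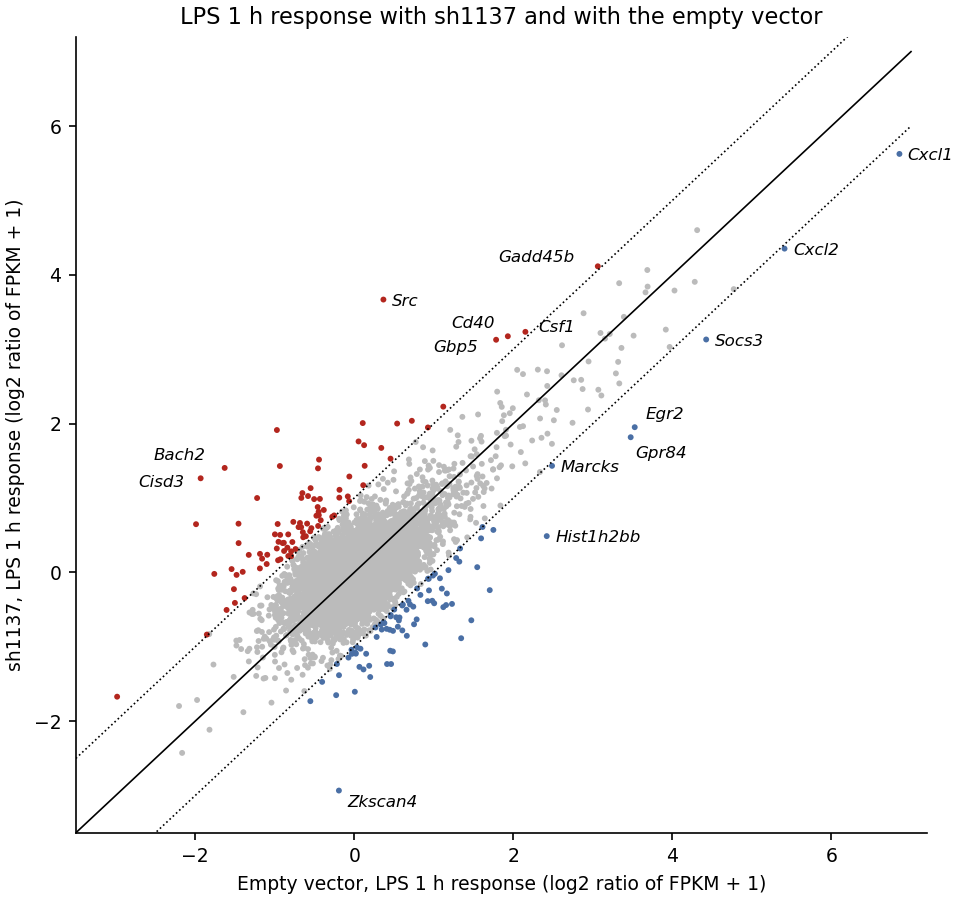
LPS 1 h response with the empty vector (x) and with sh1137 (y), as log2 ratios of (FPKM + 1), for genes with at least 5 FPKM in 1 of the 4 libraries; the solid line marks equal responses and the dotted lines a 2-fold difference, past which points are red (larger with sh1137) or blue (smaller). Src lies farthest above the line and Zkscan4 farthest below. Strongly induced genes lie on both sides of it: Cxcl1 and Cxcl2 are below the lower dotted line, and Gadd45b, Csf1 and Cd40 above the upper one.

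Src had the largest difference among named genes that reached 5 FPKM in 1 of the 4 libraries. This tyrosine kinase gene of 53.4 kb (chr2:157244180-157297598) was at 0.07 FPKM untreated and 12.6 FPKM after LPS with sh1137, and at 1.64 and 2.40 FPKM with the empty vector. Its bounds after LPS with sh1137 ran from 1.57 to 19.7 FPKM, just above the untreated upper bound of 1.51 FPKM. In the unstranded libraries Src was at 0.34, 6.12 and 24.5 FPKM with sh1137 (untreated, 45 min, 2 h) and at 0.34, 0.90 and 15.6 FPKM with the empty vector. The difference of the responses was 3.30 at 1 h, 1.90 at 45 min and 0.61 at 2 h. Hist1h2bb, a replication-dependent H2B gene, was among the largest differences in the other direction, at 531 and 745 FPKM with sh1137 and at 718 and 3851 FPKM with the empty vector. Of the 59 histone genes that could be compared, 9 had an at least 2-fold smaller response with sh1137 and none a larger one. Over all named genes the shares were 1.52% and 1.82%. The summed level of the 67 histone genes was 3110.7 FPKM untreated and 3139.8 FPKM after LPS with sh1137, against 5907.2 and 10669.5 FPKM with the empty vector. Hist1h2bb alone made up a large part of the rise in the empty vector sum. Gene by gene, 3 of 59 were 2-fold higher after LPS and 6 lower with the empty vector, with a median ratio of 0.25. With sh1137, 0 of 58 were higher and 6 lower, with a median of -0.27. Their transcripts lack a polyA tail and are near-identical, so the split of reads among them is uncertain. At 45 min and 2 h the difference for Hist1h2bb was -0.45 and -0.50.

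**Figure D5:**
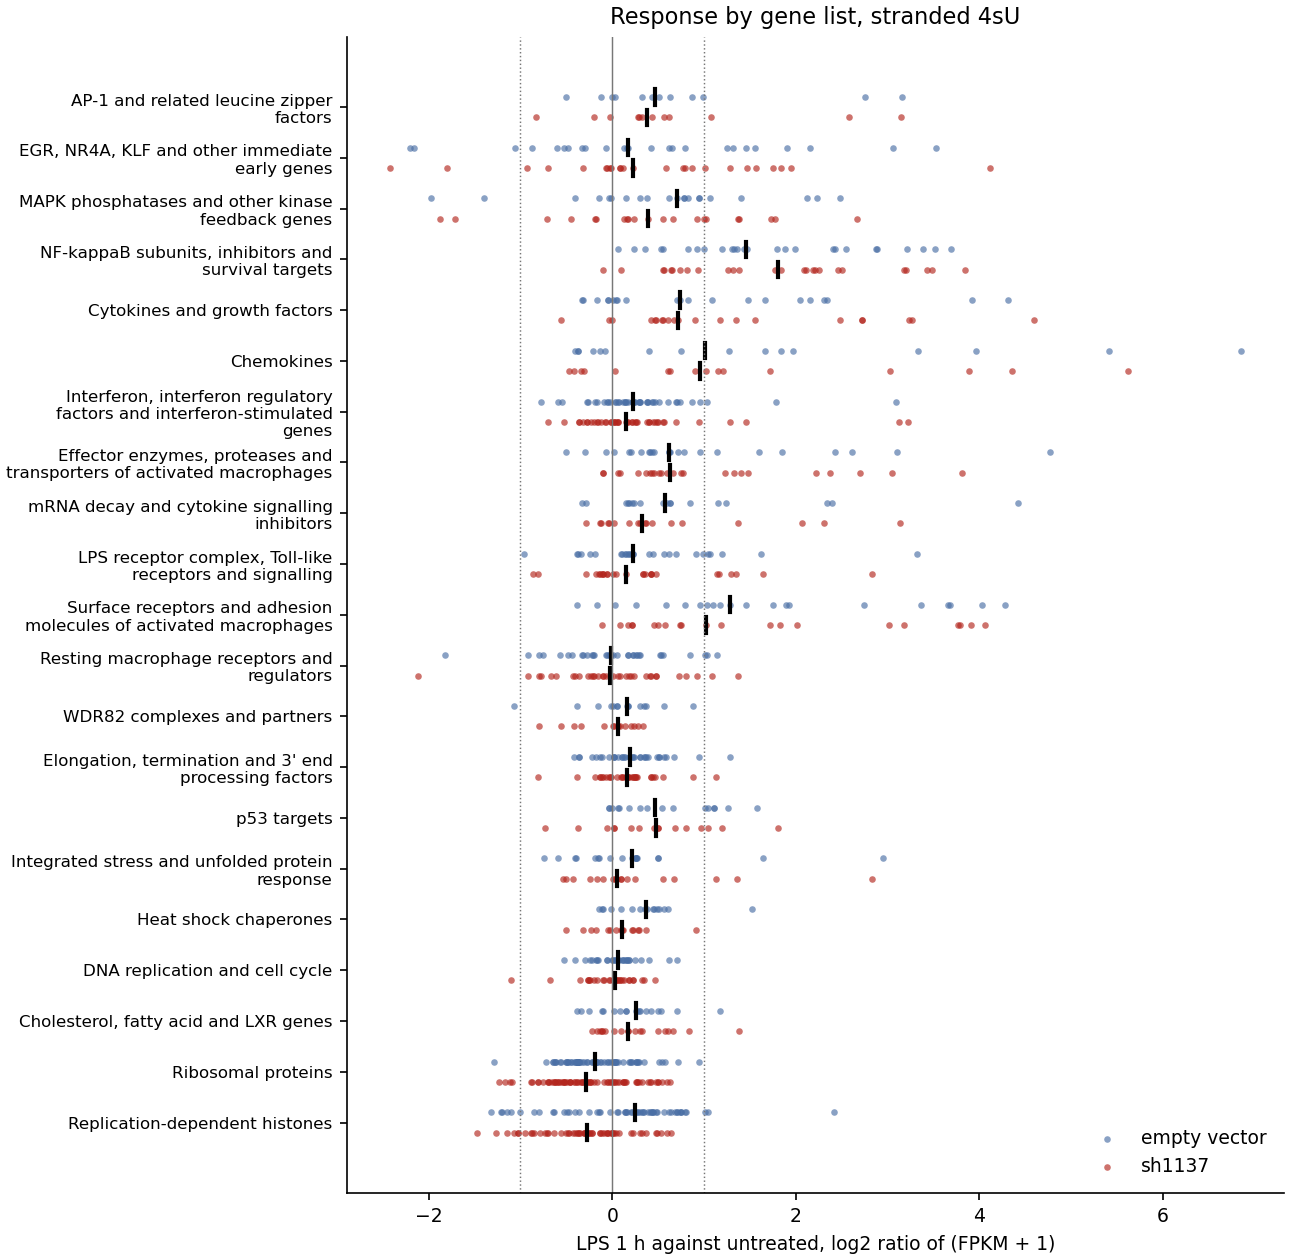
LPS 1 h response by gene list as log2 ratios of (FPKM + 1), 1 point a gene among those that entered with sh1137; red is sh1137, blue the empty vector, black bars are medians and dotted lines mark 2-fold. NF-kappaB genes (median 1.81) and surface receptors (median 1.02) lie farthest right with sh1137, while WDR82 partners, heat shock chaperones and cell cycle genes lie around 0.

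Some list members passed 2-fold in 1 vector only. Ripk2, a kinase downstream of NOD receptors, had ratios of 1.64 with sh1137 and 0.99 with the empty vector, and Herpud1, an endoplasmic reticulum stress gene, 1.36 and 0.50. Fpr2, a formyl peptide receptor, had 0.57 with sh1137 and 1.75 with the empty vector, and Mmp13, a collagenase, 0.46 and 1.60. Mdm2, the ubiquitin ligase of p53, had 0.80 and 1.26. None of these differences was tested.

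Short genes were called more often. Among genes with a locus to themselves, 58 of 813 up to 5 kb were higher (7.13%) and 31 lower (3.81%), against 5 of 464 over 100 kb higher (1.08%) and 2 lower (0.43%). With the empty vector 43 of 761 short genes and 6 of 437 genes over 100 kb were higher. The median ratio with sh1137 ranged from -0.04 in genes up to 5 kb to 0.06 in genes of 50 to 100 kb. Pde4b, a phosphodiesterase gene of 520 kb, was the highest of the genes over 100 kb, at 16.6 and 95.6 FPKM with sh1137 and at 10.3 and 93.6 FPKM with the empty vector.

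Neighbours of induced genes were examined because WDR82 takes part in termination. The search began from 51 genes at least 4-fold higher with sh1137 and at 20 FPKM or more after LPS. Within 20 kb of them 75 other genes had at least 1 FPKM in any of the 4 libraries, clone, predicted and small RNA names included. Some of these neighbours share the locus of the induced gene. The shares over all genes rest on a filter over the 2 libraries of a vector, so the bases are unlike. Of these, 10 were 2-fold higher with sh1137 (13.3%, beside 4.47% of all 13838 genes) and 8 with the empty vector (10.7%, beside 4.22%), while 1 and 2 were lower. Slc35b2, a sulfate donor transporter gene 0.79 kb from Nfkbie, was at 7.26 and 16.2 FPKM with sh1137 and at 7.69 and 12.8 FPKM with the empty vector. Icam4, a red cell adhesion gene in the locus of Icam1, was at 0 and 2.28 FPKM with sh1137 and at 0.24 and 2.57 FPKM with the empty vector. Dbndd2, 13.1 kb from Sdc4, was listed at 0 untreated in both vectors and at 1.98 FPKM with sh1137 and 1.31 FPKM with the empty vector after LPS. Icam4 and Dbndd2, like others of the 10, had under 1 FPKM untreated with sh1137 and passed 1 FPKM there only in the LPS library. In the unstranded sh1137 libraries the ratio of Slc35b2 was 1.76 at 45 min and 1.01 at 2 h. That of Icam4 was 0.51 and 0 at these times, and that of Dbndd2 -0.01 and -0.99. The counts of the 2 vectors differ by 2 genes.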

How the data were processed

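The members and gene lists were chosen with earlier results of these data known. The authors deposited FPKM values, with lower and upper bounds and a status, for 36806 genes per library, per the file headers. Per the submitters' processing notes, reads were processed with TopHat 1.3.1, Cufflinks 2.1.1 and Cuffdiff 2.1.1 on mm9. The sources used here do not give the annotation, the scaling or the level of the bounds. There are no counts, so no counting interval or floor was computed, and only the number of libraries (1 per condition) and the relative worth of 1 fragment bear on precision. Ratios were log2((FPKM + 1)/(FPKM + 1)) within a table. A gene entered with at least 1 FPKM in either library (any of 4 for differences) and status OK throughout, and was called at 2-fold. Whether libraries came from separate cultures is not stated. The named genes are Wdr82 and its partners, the 20 highest and 20 lowest ratios and the 12 highest and 12 lowest differences (at least 5 FPKM, no small RNA, clone, predicted or pseudogene names), up to 6 members a list, members called in 1 vector only, and neighbours called higher. A symbol with several entries was taken from its highest. Promoter letters and gene names came from RefSeq tables of GRCm38.p6, matched by symbol or a unique older symbol. mm9 start positions were shifted to count from 1. The calling step was tested on simulated data. Alternatives were another pseudocount (0.1 or 5 FPKM), no filter or a filter at 5 FPKM, and centring on the median. pandas and numpy in Python were used. Values of some single genes are not reported here.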

Additional observations from a re-analysis of the deposited data

Results flagged for a closer look

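Over all named genes, 5 were 2-fold higher after LPS with sh1137 and 2-fold lower with the empty vector, and 2 the opposite. Of these, 3 reached 5 FPKM in 1 of the 4 libraries and are given here; the difference was not tested, and each rests on 4 libraries. Cisd3, a mitochondrial iron-sulfur protein gene, was at 0.30 and 2.13 FPKM with sh1137 and at 9.96 and 1.87 FPKM with the empty vector, a difference of 3.20 in log2 ratio. Bach2, a transcriptional repressor gene in a locus that holds 5 genes, was at 3.93 and 12.1 FPKM with sh1137 and at 4.59 and 0.81 FPKM with the empty vector, a difference of 3.03. Mad2l2, a subunit gene of DNA polymerase zeta and shieldin, was at 2.66 and 6.32 FPKM with sh1137 and at 6.46 and 2.20 FPKM with the empty vector, a difference of 2.22. In the unstranded libraries the same differences were -0.13 at 45 min and -1.20 at 2 h for Cisd3, -0.13 and -1.02 for Bach2, and 0.74 and 0.32 for Mad2l2.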

How the results depend on the processing

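No paired analysis was possible because each condition has 1 library and the labels number none; for the same reason no library could be left out. Centring on the median kept each count within 1.5 times. With a pseudocount of 1 FPKM, a 2-fold ratio already requires at least 1 FPKM in the higher library. Removing the FPKM filter thus could not change the counts of higher and lower calls, and it is no check on them. Without the filter, the larger and smaller responses with sh1137 went from 659 and 684 to 684 and 718. With a pseudocount of 0.1 FPKM the lower calls moved from 630 to 1005 with sh1137 and from 497 to 819 with the empty vector, and the larger and smaller responses with sh1137 from 659 and 684 to 1055 and 1040. With 5 FPKM the higher and lower calls were 293 and 239 with sh1137, against 619 and 630, 323 and 199 with the empty vector, and 230 and 277 for the larger and smaller responses. With a filter at 5 FPKM the lower calls were 357 with sh1137 and 288 with the empty vector, and the larger and smaller responses 344 and 402. These counts cover all genes, small RNA names included. A lower pseudocount lets more low genes pass by construction, as does a filter at 1 FPKM in place of 5 FPKM. Of 484 single-gene ratios with sh1137, 35 crossed 2-fold with a pseudocount of 5 FPKM, 10 with 0.1 FPKM and 2 with centring.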

Other observations

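Some lists outside the inflammatory response also held genes that were higher after 1 h of LPS with sh1137. Of 16 p53 target genes that entered, 3 were 2-fold higher with sh1137 and 6 with the empty vector, where 3% and 2.93% of all named genes were. Fas, the death receptor, was at 5.42 and 21.4 FPKM with sh1137 and at 2.18 and 8.51 FPKM with the empty vector, and Cdkn1a, the inhibitor p21, had ratios of 1.04 and 1.11. Of 19 genes that answer amino acid or endoplasmic reticulum stress, 3 were higher with sh1137. Nupr1, a stress-induced chromatin protein gene, was at 20.5 and 152 FPKM with sh1137 and at 15.0 and 122 FPKM with the empty vector, while Atf4 was at 258 and 289 FPKM with sh1137.

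Of the 34 elongation, termination and 3' end processing factors that entered, Ell2 alone was 2-fold higher with sh1137 and none was lower. A count of 1 in 34 is near the 3% of all named genes that were higher. Ell2, a subunit of the super elongation complex, was at 39.8 and 88.2 FPKM with sh1137 and at 62.8 and 154 FPKM with the empty vector. In the cholesterol list Insig1, which holds back sterol synthesis, was the only one of 19 that was higher with sh1137, at 23.3 and 62.1 FPKM, and it was at 22.6 and 52.2 FPKM with the empty vector. Heat shock chaperones had 0 of 16 entered members called with sh1137 in either direction, at 2-fold and with no test. This is beside the 3% higher and 1.39% lower of all named genes. With the empty vector 2 of 17 were higher and 0 lower, and the median ratio was 0.38, against 0.10 with sh1137.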
